A study of Homo sapiens with 4 samples.

Results

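The epithelial-mesenchymal transition (EMT) regulator genes described here are 10 genes chosen by name, SNAI1, SNAI2, ZEB1, ZEB2, TWIST1, TWIST2, FOXC2, CDH1, CDH2 and VIM, out of 64486 annotated genes. A gene was counted as having a reduced region when a stretch of chromatin listed with lower H3K4me3 after Tat-SID lay within 3 kb of the gene start or of any transcription start site (TSS) of its transcripts. All 10 genes were found in the annotation, GENCODE on GRCh37. Tat-SID is a cell-penetrating peptide that carries the SIN3 interaction domain (SID), which binds the PAH2 domain of the corepressor SIN3A. MDA-MB-231, a human triple negative breast cancer cell line, was left untreated or was given Tat-SID at 1 μM or 2.5 μM, H3K4me3 was profiled by native ChIP-Seq on MNase-digested chromatin, and each of these 3 conditions is 1 library, beside 1 library of input DNA. The untreated cells received no control peptide, and the labels do not give the length of treatment. Both doses were called against the same untreated library.

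The region lists used here give positions without a signal for any region, so the size of a reduction cannot be given and no difference was tested. They also do not state which promoters carried H3K4me3 in untreated cells. A gene without a listed region may have kept its mark, lost part of it below the threshold, or carried none to begin with, and these cannot be told apart here. The lists held 141 regions reduced at 1 μM, with a median length of 8599 bp, and 2063 regions reduced at 2.5 μM, with a median length of 4949 bp. A further 3 regions were listed as increased at 2.5 μM. Read depth per library was not used here.

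In EMT, cells with tight junctions and apical polarity give these up and become motile, and carcinoma cells use the program in invasion. The SNAI and ZEB families are zinc finger repressors and the TWIST proteins are basic helix-loop-helix factors, and all of them bind E-boxes, short DNA elements of the form CANNTG. A classical target is CDH1, which encodes E-cadherin, the adhesion molecule of epithelial junctions. CDH2 encodes N-cadherin, its mesenchymal counterpart, and VIM encodes vimentin, the intermediate filament protein of mesenchymal cells. FOXC2 is a forkhead factor linked to mesenchymal differentiation. H3K4me3 marks the nucleosomes around active and poised start sites.

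The sequences before the gene starts of VIM, ZEB2 and ZEB1 are shown. They set genes whose start lay in a reduced region (VIM and ZEB2) beside the close relative of ZEB2 whose start did not (ZEB1). The canonical transcript of VIM starts at the gene start, but that of ZEB2 starts 938 bp and that of ZEB1 721 bp downstream of it. The ZEB2 and ZEB1 windows therefore do not adjoin the canonical start. Each sequence is the 250 bases upstream of the gene start in GRCh37, read 5′ to 3′ on the strand of the gene, with every CANNTG in capitals. The windows are chr10:17269990-17270239 (plus strand) for VIM, chr2:145278625-145278874 (minus strand) for ZEB2 and chr10:31607174-31607423 (plus strand) for ZEB1.
VIM: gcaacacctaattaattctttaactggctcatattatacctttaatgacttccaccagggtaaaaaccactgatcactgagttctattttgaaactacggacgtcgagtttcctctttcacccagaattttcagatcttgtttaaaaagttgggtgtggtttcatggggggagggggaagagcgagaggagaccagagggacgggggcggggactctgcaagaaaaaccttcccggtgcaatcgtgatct
ZEB2: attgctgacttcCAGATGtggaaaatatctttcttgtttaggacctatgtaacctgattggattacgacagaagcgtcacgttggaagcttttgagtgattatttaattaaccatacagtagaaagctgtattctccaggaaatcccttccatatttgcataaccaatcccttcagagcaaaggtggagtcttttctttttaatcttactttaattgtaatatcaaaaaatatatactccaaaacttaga
ZEB1: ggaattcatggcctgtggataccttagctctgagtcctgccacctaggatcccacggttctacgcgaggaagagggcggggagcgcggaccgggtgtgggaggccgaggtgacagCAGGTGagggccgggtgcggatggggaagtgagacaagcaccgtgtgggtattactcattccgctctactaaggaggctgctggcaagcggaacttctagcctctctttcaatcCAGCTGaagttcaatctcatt

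The VIM window held no E-box and lay whole within a region reduced at 2.5 μM. The ZEB2 window held 1, CAGATG with its first base 238 bases before the gene start, and only the 225 bases next to the gene lay in the reduced region, so the E-box fell outside it. The ZEB1 window lay outside every listed region and held CAGGTG at 135 bases and CAGCTG at 21 bases before the gene start. CACCTG and CAGGTG, the E-box variants preferred by SNAIL and ZEB proteins, are the same element on opposite strands and are also matches of CANNTG. This element was found upstream of SNAI1 and ZEB1, neither of which had a reduced region. It was in none of the windows of SNAI2, ZEB2 and VIM, which had one, nor in those of TWIST1, TWIST2, CDH2 and FOXC2, which had none, so its absence did not separate the genes. Among 20084 protein-coding promoters, 60.6% held CANNTG and 18.5% held CACCTG or CAGGTG in the same window. CACCTG or CAGGTG was present in 12.4% of the promoters with a reduced region and in 19.2% of the others. A match of letters is no evidence that a factor binds there.

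At 2.5 μM Tat-SID, 3 of the 10 genes had a reduced region: SNAI2, ZEB2 and VIM. That is 30.0% of the genes (95% confidence interval 6.67 to 65.2%), against 5.3% of all annotated genes and 10.8% of protein-coding genes. The interval includes 10.8%, so 10 genes are too few to tell whether their share lies above that of protein-coding genes. The 10 genes were also chosen with earlier results of these data known. In each of the 3 genes the region covered the gene start itself. None of the remaining 7 genes had a region within 300 kb, so no gene of the set lay near the edge of the window. At 1 μM, 0 of the 10 genes had a region, which allows a share of up to 30.8%, against 0.36% of all genes and 0.674% of protein-coding genes. None of the 10 lay near a region increased at 2.5 μM, and such regions touched 0.0% of annotated genes.

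**Figure D1:**
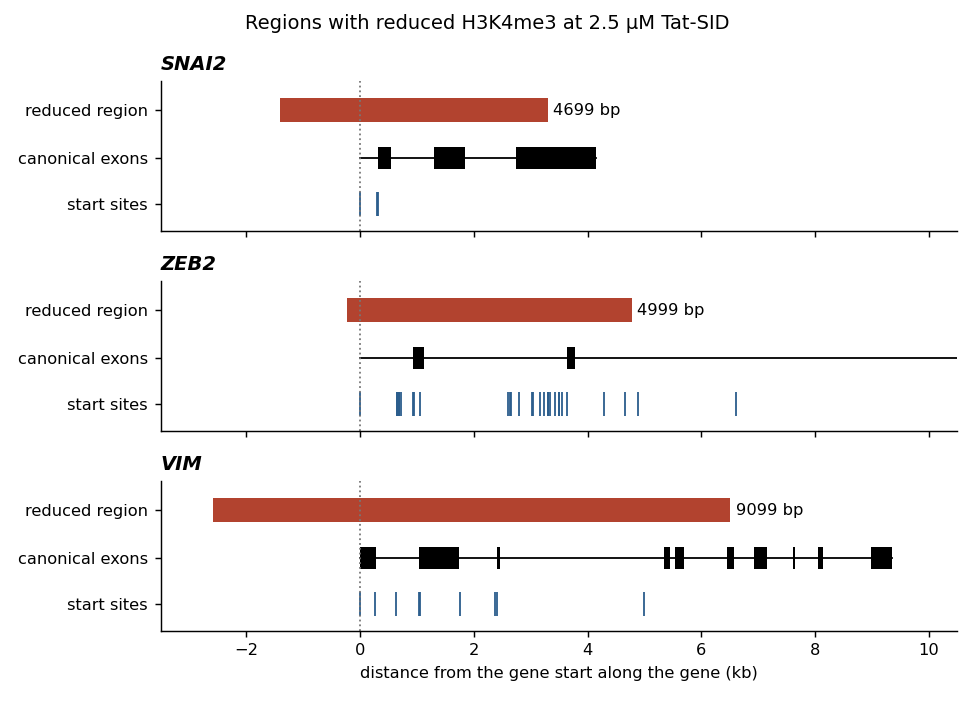
Regions reduced at 2.5 μM Tat-SID at SNAI2, ZEB2 and VIM, drawn to scale on an axis of distance from the gene start in kb, with transcription running to the right. Bars show the region, the gene with its exons and the annotated TSS. Each region crosses the gene start, and the region at VIM, at 9099 bp, runs farther both upstream and downstream than those at SNAI2 (4699 bp) and ZEB2 (4999 bp).

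The SNAI factors divided between the lists. SNAI2 encodes SLUG, a repressor of epithelial genes that also acts in mammary stem cells. It is a short gene of 4.14 kb on chromosome 8, minus strand, and its region (chr8:49831001-49835699) began 1400 bp before the gene start and ended 3298 bp past it. This stretch took in 3 of 3 TSS, 79.6% of the gene body and exons 1 and 2 whole, and it ended 547 bp into exon 3, the last exon of the canonical transcript. At 4699 bp its length was close to the median of the list, with 44.5% of the regions no longer. A lncRNA on the opposite strand, ENSG00000288761, starts 237 bp downstream of the SNAI2 start within the same region, and a region list cannot assign the mark to one gene or the other. SNAI1, which encodes SNAIL, the founding E-cadherin repressor of the family, lies on chromosome 20 from 48599517 to 48605423, plus strand. The nearest region reduced at 2.5 μM was 526 kb from its single TSS, at PTPN1, which encodes a tyrosine phosphatase. From SNAI1 to the middle of that region there were 5 protein-coding gene starts, a count that can include PTPN1 itself. At 1 μM the nearest regions were farther from both genes: 3605 kb from SNAI1, at ZNF217, and 20622 kb from SNAI2, at DUSP4.

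The ZEB factors divided in the same way, and both are large genes whose alternative promoters are of interest. ZEB2, on chromosome 2 (145121931 to 145278624, minus strand), had a region of 4999 bp (chr2:145273851-145278849) that reached 225 bp upstream of the gene start and 4773 bp into the gene. Although this was 3.05% of a 157 kb gene, it took in 31 of its 46 TSS, those of 35 of its 50 transcripts, among them 23 of 32 protein-coding ones. The canonical transcript starts 938 bp downstream of the gene start, and its exons 1 and 2 of 10 lay whole within the region. The starts outside the region lay between 4893 and 124596 bp downstream, in no listed region. The divergent lncRNA LINC01412, 811 bp upstream of the ZEB2 start, was reached through the 3 kb window, and ZEB2-AS1 starts 3079 bp downstream, within the region. ZEB1 (chromosome 10, 31607424 to 31818742, plus strand) has 21 TSS and no region at any of them. Its nearest region lay 319 kb upstream, at ZNF438, which encodes a zinc finger protein and was the only protein-coding gene starting within 500 kb of ZEB1. This was the shortest distance among the 7 genes without a region, and 54.1% of protein-coding genes lay at least as far from one. At 1 μM the nearest regions were 994 kb from ZEB1, at EPC1, and 43131 kb from ZEB2, at TFPI.

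Neither TWIST gene had a region. TWIST1 (chromosome 7, 19060614 to 19157259, minus strand) had its nearest region 601 kb from a TSS, at HDAC9, which encodes a class IIa histone deacetylase. No other protein-coding gene starts between the 2. The HDAC9 region was the one nearest to TWIST1 at both doses, from 18547651 to 18555499 at 1 μM (7849 bp) and from 18547201 to 18555499 at 2.5 μM (8299 bp), and TWIST1 was the only gene of the 10 with the same nearest site at both doses. TWIST2, at chromosome 2 (239756673 to 239832230, plus strand), lay 4350 kb from its nearest region, and 4.24% of protein-coding genes were at least as far from one. FOXC2, a single-exon gene on chromosome 16 (86600435 to 86603334, plus strand), lay farthest of all: its nearest region was 5789 kb away, inside CDYL2 and at no TSS, and 2.48% of protein-coding genes were at least as far. Chromosome 16 held 23 of the 2063 regions and none of the 1 μM regions, and 2.67% of its protein-coding genes had a region at 2.5 μM, the lowest share among the 7 chromosomes that carry these genes. On the other 6 the share ran from 8.41% on chromosome 20 to 13.6% on chromosome 2.

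Of the adhesion and filament genes, VIM alone had a region. The VIM gene (chromosome 10, 17270240 to 17279592, plus strand) had the longest region of the set, 9099 bp (chr10:17267651-17276749), which began 2589 bp before the gene start and ended 6509 bp past it. It was longer than or equal to 94.5% of the 2063 regions, ranked 114 by length, and took in 9 of 9 TSS and 69.6% of the gene, with exons 1 to 5 whole and 58 bp of exon 6 of 10. VIM-AS1, an antisense lncRNA that starts 1777 bp downstream of the VIM start, shares the region. It also had a region of its own, 4199 bp long, whose near edge was 11.3 kb upstream of VIM, and a further one, 3149 bp long, lay 26.0 kb upstream at TRDMT1, an RNA methyltransferase gene. STAM, a signal-transducing adaptor gene, had a region 414 kb downstream. With 4 regions within 500 kb, VIM differed from SNAI2 and ZEB2, whose own region was the only one in that range. VIM also has more protein-coding neighbours in that range, 6 against 2 for SNAI2 and 1 for ZEB2. The region nearest to VIM at 1 μM was 5328 kb away, at BMI1 and COMMD3.

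CDH1 (chromosome 16, plus strand) had no region at any of its 10 TSS. Its nearest lay 649 kb away at NFATC3, an NFAT transcription factor gene, with 8 protein-coding gene starts in between, and none of the 14 protein-coding neighbours within 500 kb had a region. For CDH2 (chromosome 18, 25512843 to 25757910, minus strand, 11 TSS) the nearest region was 1788 kb away and was 449 bp long. That region had no annotated TSS within 3 kb and overlapped no protein-coding gene. Chromosomes 16 and 18 held no region at 1 μM, so no distance can be given at that dose for CDH1, CDH2 or FOXC2. The genes HDAC9, PTPN1, ZNF438, NFATC3 and CDYL2 and those named at 1 μM were picked as the nearest to a region, after the values were seen.

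**Figure D2:**
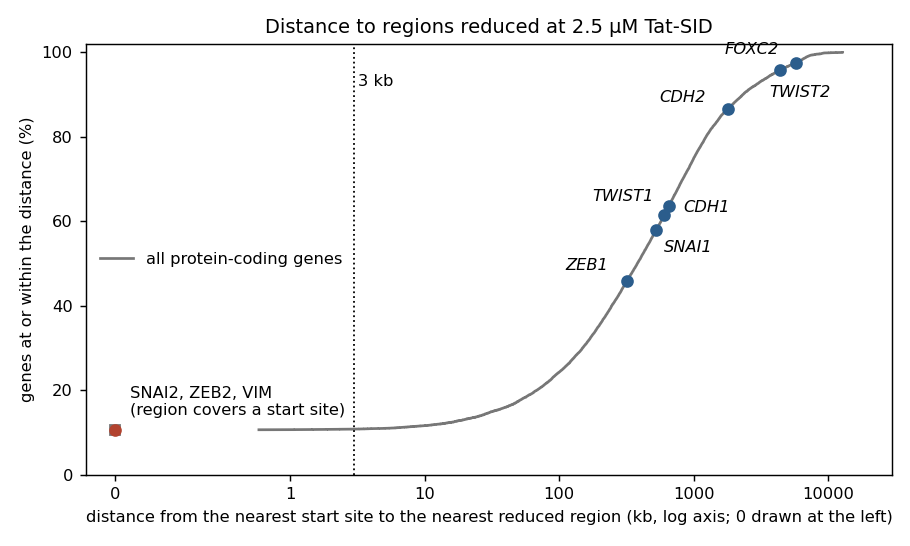
Distance in kb, on a log axis, from the TSS of each EMT regulator gene to the nearest region reduced at 2.5 μM Tat-SID, beside the cumulative share of protein-coding genes. SNAI2, ZEB2 and VIM are at 0, and the other 7 run from ZEB1 at 319 kb to FOXC2 at 5789 kb, on both sides of the median of 475 kb of protein-coding genes without a region.

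Of the 7 genes without a region, only ZEB1 lay closer to one than the median protein-coding gene without a region, at 475 kb. SNAI1, TWIST1 and CDH1 lay between 526 and 649 kb away, and CDH2, TWIST2 and FOXC2 lay over 1 Mb away, as did 25.0% of protein-coding genes. None of the 3 regions at SNAI2, ZEB2 and VIM overlapped a region listed at 1 μM, and over the whole 2.5 μM list 6.93% of the regions did.

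The promoters of the 10 genes differ in base composition, taken over 1 kb on each side of the gene start. The 3 genes with a region had the 3 lowest GC contents of the set, 43.1% at ZEB2, 45.4% at SNAI2 and 53.4% at VIM. The others ran from 53.9% at ZEB1 to 70.1% at TWIST2, and the median promoter had 55.0%. ZEB2 and SNAI2 were also the only genes of the set without a CpG promoter, here a GC content over 50% with a ratio of observed to expected CpG over 0.6. Over all genes the direction was the opposite for this class: 14.8% of protein-coding genes with a CpG promoter had a region and 7.31% of those without one. Within GC content alone the share rose and then fell, from 9.04% of promoters at or under 45% GC to 13.1% between 45 and 55%, and to 5.99% over 65%. The ZEB2 values describe sequence around its gene start, and its canonical transcript starts 938 bp downstream, near the edge of the window. The reduced regions themselves had 43.0% GC at SNAI2, 48.2% at VIM and 50.8% at ZEB2, beside a median of 45.1% over the 2.5 μM list.

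**Figure D3:**
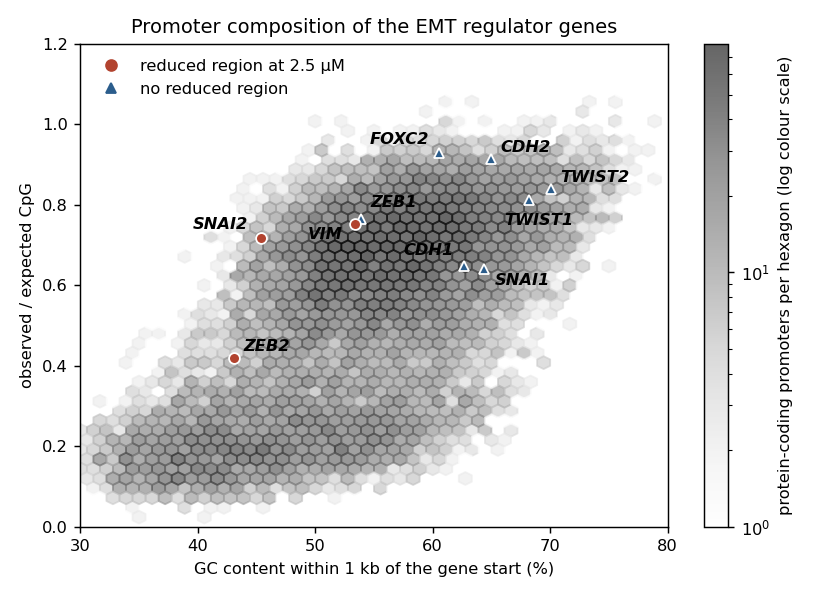
GC content (percent) against the ratio of observed to expected CpG within 1 kb of the gene start. Hexagons count protein-coding promoters on a log grey scale, circles are the EMT regulator genes with a region reduced at 2.5 μM and triangles those without. The circles of ZEB2, SNAI2 and VIM lie farthest left, with ZEB1 next to VIM.

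VIM and ZEB1 had nearly the same composition, with CpG ratios of 0.752 and 0.764, and differed in outcome. Among promoters within 2.5 GC points and 0.1 of the CpG ratio of each gene, 20.1% of 1739 around VIM and 20.2% of 1715 around ZEB1 had a region. The share was highest around SNAI2, at 30.3% of 373 promoters, and next around FOXC2, at 26.8% of 527, although FOXC2 itself had none. Around ZEB2 it was 13.6% of 324. It was lowest around SNAI1 (4.68% of 1046), CDH1 (6.83%), TWIST1 (7.05%) and TWIST2 (7.64%), and 16.9% around CDH2. Whether composition plays a part in which of these genes were listed was not tested.

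The wider EMT network was read through 8 lists of genes that act beside these 10, with 108 of 109 genes found by name. At 2.5 μM, 25 of the 108 had a reduced region (23.1%, 95% confidence interval 15.6 to 32.2%), against the 10.8% of protein-coding genes given above, and in 20 of them the region covered the gene start. At 1 μM the count was 3 of 108 (2.78%, 0.577 to 7.9%), against 0.674% of protein-coding genes, a share that this interval includes. These intervals cover counting error over genes only, and the lists were drawn up with results of these data known.

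**Figure D4:**
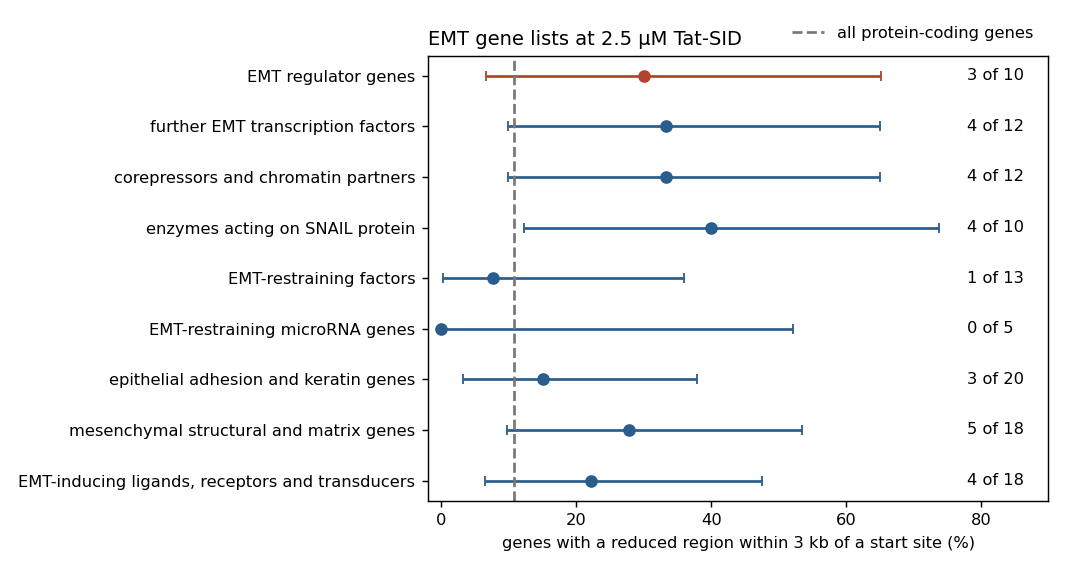
Share of genes (percent) with a region reduced at 2.5 μM within 3 kb of a start site, for the EMT regulator genes and 8 further lists. Points are shares, bars are exact 95% intervals over genes, and the dashed line marks the 10.8% of all protein-coding genes, which lies inside every interval but that of the enzymes acting on SNAIL protein.

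Among 12 further transcription factors that drive EMT, 4 had a region (33.3%, 9.92 to 65.1%). HMGA2, an architectural chromatin protein, had the longest, 10149 bp over the gene start. The regions at SOX4 (6849 bp) and FOXC1 (5499 bp), the latter a paralog of FOXC2, each spanned the whole gene.

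The partners that these repressors recruit gave the same count, 4 of 12. SIN3A, which encodes the protein that the SID peptide binds, had a region of 7849 bp over its own start. AJUBA, a LIM adaptor of SNAIL, had one of 7449 bp. KDM1A, the LSD1 demethylase, and SUZ12, a Polycomb subunit, had shorter ones of 3949 and 3749 bp. Among 10 genes for enzymes that act on SNAIL protein, 4 had a region at the gene start (40.0%, 12.2 to 73.8%). This was the only one of the 8 lists whose interval lay above 10.8%. The interval includes the 14.8% of protein-coding genes with a CpG promoter, and the lists were drawn up with results of these data known. The 4 genes are GSK3B (7199 bp), the kinase that marks SNAIL for degradation, FBXO11 (5799 bp) and FBXL5, both F-box proteins of ubiquitin ligases, and COPS2 (5049 bp), a signalosome subunit. FBXL5 had a region of 6899 bp at its start and another of 4849 bp at internal TSS, and it was 1 of the 3 list genes also listed at 1 μM, with 7049 bp.

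Factors that hold cells epithelial were listed at a share near that of all protein-coding genes. Of 13 such genes only EHF, an ETS factor of epithelia, had a region (7.69%, 0.195 to 36.0%), and it had one at both doses, 10349 bp at 1 μM and 9899 bp at 2.5 μM. None of 5 genes of the miR-200 family had a region, which allows up to 52.2%. Of 20 epithelial adhesion and keratin genes, 3 had a region (15.0%, 3.21 to 37.9%), and none of the 3 regions covered the gene start. They were CTNNB1 (6499 bp), which encodes β-catenin, TJP1 (4399 bp), the ZO-1 gene, and CTNND1 (4299 bp), the p120-catenin gene. All 3 encode cytoplasmic partners of the junction. Their regions held 29 of 48 TSS at CTNNB1, 6 of 12 at TJP1 and 9 of 22 at CTNND1. The gene start is the most upstream annotated TSS, so a region that misses it can still cover other promoters of the gene.

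Of 18 mesenchymal structural and matrix genes, 5 had a region (27.8%, 9.69 to 53.5%), all over the gene start as at VIM. CDH11, another mesenchymal cadherin, had 9199 bp, AXL, a receptor tyrosine kinase, 8999 bp, CD44, the hyaluronan receptor, 8049 bp and FN1, the fibronectin gene, 4999 bp. The fifth is LOX, a collagen cross-linking oxidase, with 4349 bp, named after its values were seen. Of 18 genes for EMT-inducing ligands, receptors and transducers, 4 had a region (22.2%, 6.41 to 47.6%). HIF1A, the hypoxia-inducible factor, had 2 at each dose, of 12899 and 10099 bp at 1 μM and of 12999 and 9799 bp at 2.5 μM. At both doses the longer one covered the gene start and held 5 of 9 TSS. The shorter one began 47770 bp downstream of the gene start, held 1 of 9 TSS and ran past the gene end. MET, the HGF receptor, had 5299 bp and NFKB1 5099 bp, both over the gene start. At NOTCH2 the region of 4999 bp began 29967 bp downstream of the gene start, the most upstream TSS, and held 4 of its 10 TSS.

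**Figure D5:**
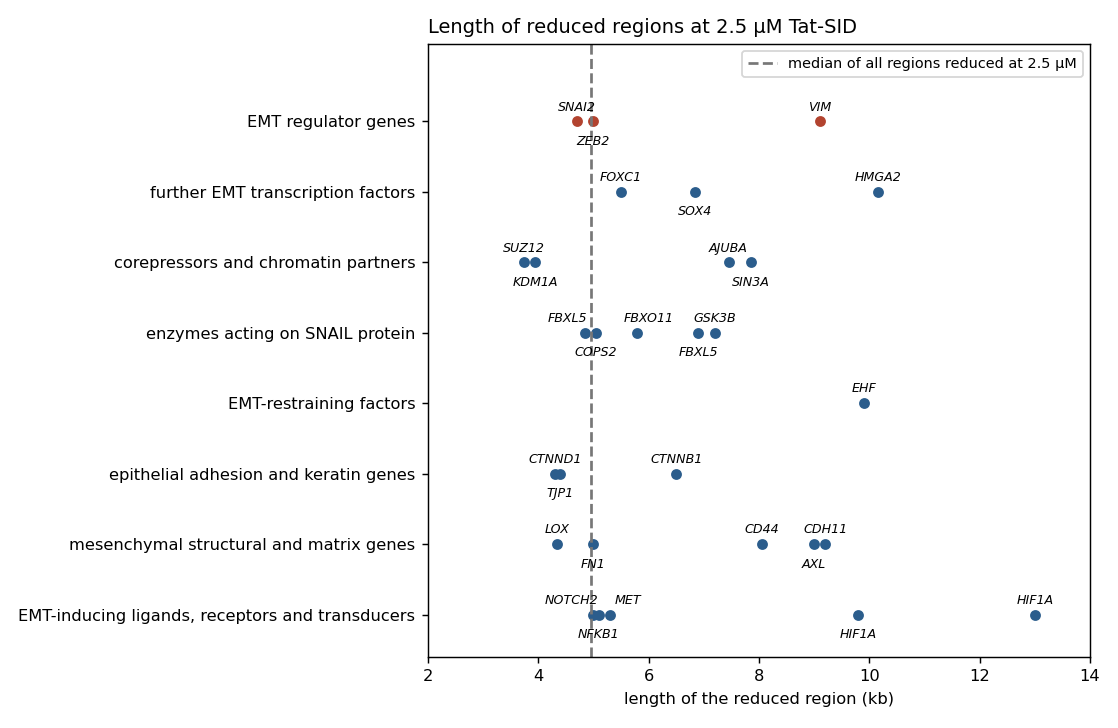
Length in kb of each region reduced at 2.5 μM at the EMT regulator genes and at the genes of the further lists named in the text, 1 point per region. The dashed line is the median of all 2063 regions, 4949 bp. SNAI2 and ZEB2 sit at that line, and VIM at 9099 bp lies beside AXL, CDH11 and EHF.

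By length, VIM at 9099 bp stood with CDH11 and AXL, its nearest values among the mesenchymal genes, while ZEB2 had the same length as FN1 and NOTCH2, 4999 bp. Length is not a measure of how much H3K4me3 was lost, since a broad mark can give a long region at any loss past the threshold.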

How the data were processed

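Native ChIP-Seq libraries of H3K4me3 (antibody Abcam ab1012) and of input DNA from MDA-MB-231 cells were sequenced as single-end reads. Reads were checked by the authors with FastQC (version 0.10.0), aligned to hg19 with Bowtie (version 1.0.0) and compared, untreated against each dose, with SICER-df at a window of 50 bp and a gap of 400 bp. The methods state an FDR of 1e-8 for this comparison and the names of the deposited lists an FDR of 1e-15. The deposited lists hold chromosome, start and end, with no value per region, and the direction of change is given by the list names. A list of regions increased at 1 μM was not used here.

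Positions are printed from 1. Regions were intersected with windows of 3 kb on each side of every TSS of GENCODE release 44 on GRCh37, in bedtools (version 2.31.1), where 1 shared bp was enough, and the intersection was checked on simulated regions. Shares carry exact Clopper-Pearson 95% confidence intervals (SciPy version 1.17.1), which cover counting error over genes only. GC content, CpG ratio and motifs, the latter searched on both strands, were read from the GRCh37 genome. The classes of like composition were chosen after the data were seen. All 10 genes are named. From each further list, every gene with a region at 1 μM and the 4 with the longest regions at 2.5 μM are named. A promoter sequence, a nearest gene and a gene of the transcription factor list are not reported here. The genes and lists were chosen with earlier results of these data known. Alternatives were a window of 10 kb, a region over the TSS base, the gene start only, TSS of protein-coding transcripts, minimum lengths of 1000 and 4000 bp, and merging of regions within 3000 bp.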

Additional observations from a re-analysis of the deposited data

How the results depend on the processing

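The counts of EMT regulator genes with a region were the same under all 7 alternatives, 3 reduced at 2.5 μM, 0 reduced at 1 μM and 0 increased, and merging of neighbouring regions left the lengths at SNAI2, ZEB2 and VIM as they were. The count over the further lists at 2.5 μM went from 25 to 20 genes with the gene start alone and to 23 with regions of at least 4000 bp, and it was 3 at 1 μM throughout. No paired analysis was possible because there is 1 library per condition, and no test was made. A stricter FDR threshold could not be applied, since the lists hold no value per region. With 1 library per condition, a difference between libraries and an effect of the peptide cannot be told apart, and read depth, which limits which regions could pass the threshold, was not used here.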
